A study of Arabidopsis thaliana with 18 samples.

Results

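SWEET2 (locus AT3G14770) encodes a sugar carrier of Arabidopsis thaliana roots, and its messenger RNA was followed here on 18 root arrays. It was 1 of 13287 genes with a probe set that names them alone, and was read by exactly 1 of the 22746 probe sets tested. The probe set was found by the gene's symbol. The gene itself was chosen with earlier results of these data known. Its p-values and ranks are therefore not those of a gene picked blind. The arrays were Affymetrix ATH1 arrays, on which several short probes report on each transcript, and fell into 6 groups of 3 biological replicates. All plants were 19 days old. They had been sown on medium with 1% sucrose, were moved on day 5 to mineral agar for which no sucrose is listed, with 50 µM Fe-EDTA, and grew under 12 h of light a day.

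The groups combine 3 genotypes with 2 treatments. Col-0 is the wild type, myb72-2 is a mutant of the root transcription factor MYB72 in the Col-0 background, and oxMYB72 carries 35S:FLAG-MYB72 in the myb72-2 background. The viral 35S promoter is active in most plant cells, so the transgene is not restricted to the cells in which MYB72 is normally made, and the labels do not say how many lines it was tested in. Roots were either left untreated or inoculated on day 17 with 10 µL of a suspension of Pseudomonas fluorescens WCS417 (optical density 0.01 at the wavelength given in the labels), a root-colonizing bacterium that benefits the plant, and were sampled 2 days later. No probe set was named MYB72 in the annotation used, so the genotype labels were not checked against that gene. Nothing says that the replicates came from separate batches of plants, so the p-values reflect the spread among these arrays, part of which may be technical.

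SWEET proteins are membrane carriers that let sugars pass down their concentration gradient, and plants use them to load phloem, feed nectaries, pollen and seeds, and move sugar in and out of the vacuole. SWEET2 lies in the vacuolar membrane of root cells. It is known to limit the loss of sugar from roots into the surrounding soil, and plants without it are more susceptible to the root pathogen Pythium. Microbes around roots live largely on carbon that roots release.

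SWEET2 was lower in roots with WCS417 in all 3 genotypes, at 51.8% to 57.5% of the level without the bacterium. It was higher in oxMYB72 than in Col-0 and in myb72-2 by 1.65-fold to 1.85-fold, with or without the bacterium. Between myb72-2 and Col-0 no difference passed the test. The fall with WCS417 did not differ detectably between the genotypes. All levels below are the deposited log2 values of 1 probe set, on which a step of 1 is a doubling.

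Without bacteria, the 3 Col-0 arrays gave SWEET2 log2 values of 9.09, 9.07 and 8.83 (mean 9.00 ± 0.15, SD, n = 3). With WCS417 they gave 8.22, 8.29 and 8.09 (8.20 ± 0.10, SD, n = 3). The groups did not overlap, and the lowest untreated array stood 0.54 above the highest inoculated one on the log2 scale. The difference was -0.80 ± 0.14 (SE, 95% interval -1.09 to -0.51), or 57.5% of the untreated level (limma, adjusted p = 0.000281).

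In myb72-2, SWEET2 stood at 9.10, 8.98 and 8.88 without bacteria (8.99 ± 0.11, SD, n = 3) and at 7.99, 8.27 and 7.85 with WCS417 (8.04 ± 0.21, SD, n = 3). Again every inoculated array was below every untreated one, with a gap of 0.61. The difference was -0.95 ± 0.14 (SE, 95% interval -1.24 to -0.66), or 51.8% of the untreated level (limma, adjusted p = 3.55e-05). The mutant thus carried a fall in SWEET2 that passed the test on its own arrays.

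In oxMYB72 the untreated arrays held the 3 highest SWEET2 values of the study, at 10.13, 9.86 and 9.57 (9.85 ± 0.28, SD, n = 3). The inoculated arrays gave 9.12, 8.73 and 8.93 (8.93 ± 0.19, SD, n = 3). These groups did not overlap either, with a gap of 0.45, although the untreated oxMYB72 arrays had the widest spread of the 6 groups. The difference was -0.93 ± 0.14 (SE, 95% interval -1.22 to -0.64), or 52.6% of the untreated level (limma, adjusted p = 5.88e-05).

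**Figure D1:**
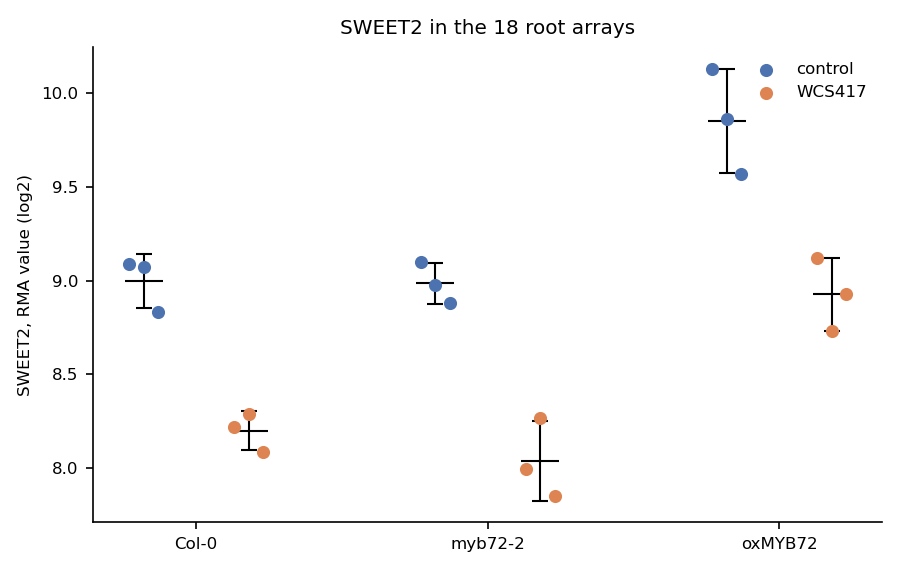
Log2 value of SWEET2 in each of the 18 arrays (points), by genotype on the horizontal axis and by treatment, with the group mean as a bar and its SD (n = 3). In each genotype the 3 arrays with WCS417 lie below the 3 without, and the oxMYB72 arrays lie above those of the other genotypes at the same treatment.

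Averaged over the genotypes, SWEET2 was lower with WCS417 by -0.89 ± 0.08 on the log2 scale (SE, 95% interval -1.06 to -0.72), or 53.9% of the untreated level (limma, adjusted p = 1.38e-08). An exact permutation of the treatment labels within genotypes, two-sided, gave p = 0.00025, the smallest that its 8000 relabellings can give. The direction was the same in 9 of 9 inoculated arrays when each was set against the untreated arrays of its genotype. A call with WCS417 was common among all probe sets. In Col-0, 15.3% were called in either direction and 8.96% as lower. In myb72-2 the shares were 21.4% and 12.9%, and in oxMYB72 19.3% and 9.09%. For the average, 37.6% were called, 19.5% as lower and 18.1% as higher, and 4.99% of all probe sets (1135) were called lower in each of the 3 genotypes. By size, SWEET2 stood further out than its call alone shows: 1.20% of all probe sets fell at least as far on average, 1.68% in Col-0, 1.33% in myb72-2 and 1.13% in oxMYB72.

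The genotype comparisons set SWEET2 levels side by side within 1 treatment. Without bacteria the oxMYB72 mean was 0.85 ± 0.14 above that of Col-0 (SE, 95% interval 0.57 to 1.14), or 1.81-fold (limma, adjusted p = 0.000257). Against myb72-2, the background of the transgene, it was 0.87 ± 0.14 above (95% interval 0.58 to 1.16), or 1.82-fold (adjusted p = 0.000238). The lowest untreated oxMYB72 array stood 0.47 above the highest untreated array of the other genotypes. Few probe sets behaved so. In oxMYB72 against Col-0 without bacteria 7.41% were called in either direction and 3.83% as higher, and 1.12% of all rose at least as far as SWEET2. Against myb72-2 3.53% were called as higher, and 1.07% of all rose at least as far.

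With WCS417 the same order held for SWEET2. The oxMYB72 mean was 0.73 ± 0.14 above that of Col-0 (95% interval 0.44 to 1.02), or 1.65-fold (limma, adjusted p = 0.00217), and 0.89 ± 0.14 above that of myb72-2 (95% interval 0.60 to 1.18), or 1.85-fold (adjusted p = 0.000191). The lowest inoculated oxMYB72 array stood 0.44 above the highest inoculated array of the other genotypes. Called as higher were 2.02% of all probe sets against Col-0 and 2.86% against myb72-2, and only 0.615% and 0.510% rose at least as far as SWEET2. Averaged over both treatments, the SWEET2 difference was 0.79 ± 0.10 against Col-0 (1.73-fold, adjusted p = 6.59e-06) and 0.88 ± 0.10 against myb72-2 (1.84-fold, adjusted p = 1.52e-06), where 4.99% and 4.69% of all probe sets were called as higher. Averages over both treatments were not among the planned comparisons. The comparisons with Col-0 and with myb72-2 share the oxMYB72 arrays.

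The mutant did not differ detectably from the wild type in SWEET2. Without bacteria the difference of myb72-2 minus Col-0 was -0.01 ± 0.14 (SE, 95% interval -0.30 to 0.28, limma, adjusted p = 1.00), and 0.0396% of all probe sets were called. With WCS417 it was -0.16 ± 0.14 (95% interval -0.45 to 0.13, adjusted p = 0.88), with 0.127% of all called. Averaged over both treatments it was -0.09 ± 0.10 (95% interval -0.29 to 0.12, adjusted p = 0.958), with 0.334% of all called. Changes of SWEET2 inside those intervals cannot be told from none with 3 arrays a group.

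Whether the response to WCS417 depended on the genotype was tested as the difference between the effects. For SWEET2 the effect in myb72-2 minus that in Col-0 was -0.15 ± 0.20 (SE, 95% interval -0.56 to 0.26, limma, adjusted p = 1.00). The effect in oxMYB72 minus that in Col-0 was -0.13 ± 0.20 (95% interval -0.54 to 0.28, adjusted p = 0.953), and minus that in myb72-2 it was 0.02 ± 0.20 (95% interval -0.39 to 0.43, adjusted p = 0.982). None of the 3 passed the test, and the sign of the last one changed with the normalization. Of all probe sets 0.0176%, 1.75% and 2.78% were called in these comparisons. Split by source, 52.5% of the sum of squares of SWEET2 over the 18 arrays lay with WCS417, 41.2% with genotype, 0.29% with their combination and 6.01% between replicates.

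**Figure D2:**
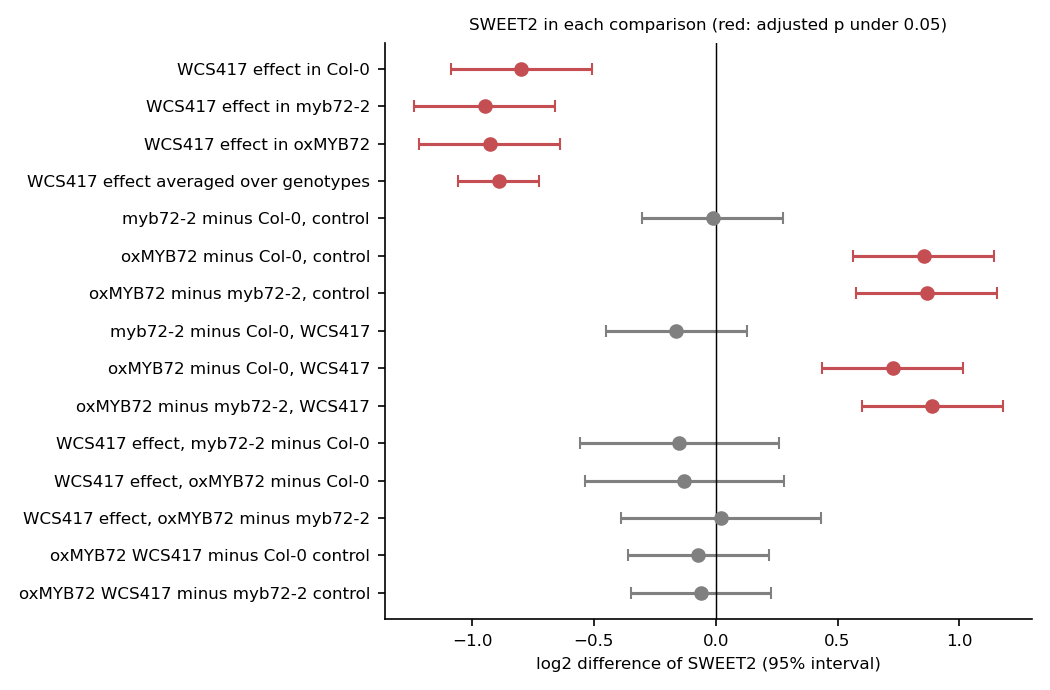
Log2 difference of SWEET2 in each comparison (horizontal axis), with its 95% interval from the model of all 18 arrays, and in red where the adjusted p is under 0.05. The WCS417 effects lie between -0.95 and -0.80, the oxMYB72 differences within a treatment between 0.73 and 0.89, and the intervals of the differences between effects cross 0.

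From high to low, the group means of SWEET2 ran from untreated oxMYB72 through untreated Col-0, untreated myb72-2 and inoculated oxMYB72 to inoculated Col-0 and inoculated myb72-2. The 3 groups in the middle lay within their spread. Inoculated oxMYB72 differed from untreated Col-0 by -0.07 ± 0.14 (SE, 95% interval -0.36 to 0.22, limma, adjusted p = 0.809) and from untreated myb72-2 by -0.06 ± 0.14 (95% interval -0.35 to 0.23, adjusted p = 0.836). These pairs of groups were chosen after their values had been seen, and 14.4% and 18.0% of all probe sets were called in them. The inoculated Col-0 and myb72-2 groups, at the low end, did not differ detectably either.

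Arrays of whole roots cannot tell fewer cells that express SWEET2 from less of its RNA per cell. Of the root markers, PYK10, a beta-glucosidase of root endoplasmic reticulum bodies, and EXPA7, an expansin of root hairs, were measured. PYK10 differed with WCS417 by -0.10 on average and was not called, while EXPA7 rose by 0.48 ± 0.09 (SE, adjusted p = 0.000222). In oxMYB72 minus Col-0, averaged over treatments, EXPA7 was at -0.35 (limma, adjusted p = 0.0462) and PYK10, not called, at 0.02. That EXPA7 call was kept in 7 of 18 fits with single arrays left out. Genes of the photosynthetic apparatus, used as markers of green tissue, fell with the bacterium on average in 7 of 7 measured, where 19.5% of all probe sets were called lower. Their median was -0.83, against 0.02 over all probe sets, with LHCB4.2, a chlorophyll-binding antenna protein, at -1.20. Their summed linear level lay between 756 and 1261 in the untreated arrays and between 449 and 603 in the inoculated ones. Without bacteria that sum lay between 756 and 955 in oxMYB72 and between 1036 and 1261 in Col-0. The 7 differences of oxMYB72 minus Col-0 ran from -0.60 to 0.29 with a median of -0.45 (log2). Of these, 4 were called, and 1 to 5 over all fits, where 7.41% of all probe sets were called in either direction. In the same comparison with WCS417, 0 were called. With WCS417 the sums overlapped, at 475 to 603 in oxMYB72 and 553 to 578 in Col-0, and the median difference was -0.07. The 3′ minus 5′ log2 value of the actin control probes, which reflects RNA quality, had a mean of 1.22 without and 1.32 with WCS417. That of the GAPDH control probes had a mean of -0.17 without and -0.05 with WCS417. Over all genotypes together, the ranges of untreated and inoculated arrays overlapped for both transcripts. Within a genotype some were apart. The GAPDH values did not overlap in Col-0 (-0.22 to -0.14 without, -0.13 to 0.08 with WCS417) or in oxMYB72 (-0.26 to -0.12 and -0.11 to 0.02). The actin values did not overlap in oxMYB72 (1.15 to 1.22 without, 1.27 to 1.41 with WCS417). The other ranges within a genotype overlapped. The part of the root markers, of the green tissue and of RNA quality in the SWEET2 differences was not tested.

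Other SWEET genes show how far the SWEET2 pattern was shared within its family. Of the 17 members, 16 had a probe set that named them alone, all but SWEET12. In the gene table used, the fifth and the fifteenth member bear the names AtVEX1 and SAG29. Averaged over genotypes, 2 of the 15 beside SWEET2 rose with WCS417 and 0 fell, where 18.1% and 19.5% of all probe sets were called as higher and as lower. The median effect of the 15 was 0.07, against 0.02 over all probe sets. Both that rose, SWEET13 and SWEET14, are close relatives that carry sucrose and gibberellin at the plasma membrane, so their probes may read each other's transcript, which was not tested.

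SWEET14 had a mean of 4.43 ± 0.12 without and 5.18 ± 0.23 with WCS417 in Col-0, 4.19 ± 0.44 and 5.14 ± 0.22 in myb72-2, and 4.13 ± 0.14 and 4.89 ± 0.16 in oxMYB72 (log2, SD, n = 3). It rose on average by 0.82 ± 0.10 (SE, 1.76-fold, limma, adjusted p = 9.31e-07) and was called in each genotype. SWEET13 rose on average by 0.80 ± 0.14 (1.74-fold, adjusted p = 0.000135). It was called in myb72-2 (1.1 ± 0.25, adjusted p = 0.00278), whereas in Col-0 it was at 0.72 ± 0.25 (adjusted p = 0.0569) and in oxMYB72 at 0.58 ± 0.25 (adjusted p = 0.115). The probe sets of both gave log2 values near the low end of the array's scale of 2.42 to 14.6, where RMA values understate differences.

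The other 13 SWEET genes had averaged effects between -0.08 and 0.14, and none was called. For 8 of them (SWEET3, SWEET4, AtVEX1, SWEET6, SWEET7, SWEET8, SWEET9 and SWEET10) the group means lay between 3.28 and 3.92, near the low end of the scale, where the probes may detect nothing and a fall could not be seen. The better measured ones include SWEET16 (0.08 ± 0.08, SE) and SWEET17 (-0.05 ± 0.06), which lie in the vacuolar membrane as SWEET2 does. SWEET11, a phloem-loading sucrose carrier whose group means were also low (4.1 to 4.2), was at -0.08 ± 0.10. SWEET1, a glucose carrier of the plasma membrane, was at 0.14 ± 0.11.

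SWEET2 was set array by array against SWEET16 and SWEET17, the relatives of the same membrane, whose group means lay between 8.87 and 9.77. The WCS417 effect on SWEET2 was lower by -0.97 than that on SWEET16 and by -0.84 than that on SWEET17 (log2). Both gave an exact p of 0.00025, the smallest possible (exact permutation within genotypes, two-sided, the same after adjustment over the 15 SWEET genes computed). The difference of oxMYB72 from both other genotypes was larger for SWEET2 than for SWEET16 by 0.88 and than for SWEET17 by 0.71 (exact permutation within treatments, two-sided, p = 0.000142, the smallest possible, and 0.000152 adjusted over the 15). These pairs were picked from the 15 after all levels had been seen. The results for the other 13 are not given, because most of their probe sets stood near the low end of the scale. A difference from a gene that hardly changes mainly repeats the change of SWEET2, whose own averaged WCS417 effect was -0.89. That holds for SWEET16 and SWEET17 too, so these comparisons add little to the result for SWEET2 alone.

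In the genotype comparisons themselves 0 of the 15 other SWEET genes were called, by limma at an adjusted p under 0.05, and 0 had an unadjusted p under 0.05 in any of the 6 comparisons within a treatment. Without bacteria 7.41% of all probe sets were called in either direction for oxMYB72 against Col-0, 6.81% for oxMYB72 against myb72-2 and 0.0396% for myb72-2 against Col-0. With WCS417 the shares were 4.26%, 5.52% and 0.127%. A count of 0 of 15 is near these shares and is not a result about the family. For oxMYB72 against Col-0 without bacteria, where SWEET2 was at 0.85, the 15 lay between -0.31 and 0.18 with a median of 0.04.

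**Figure D3:**
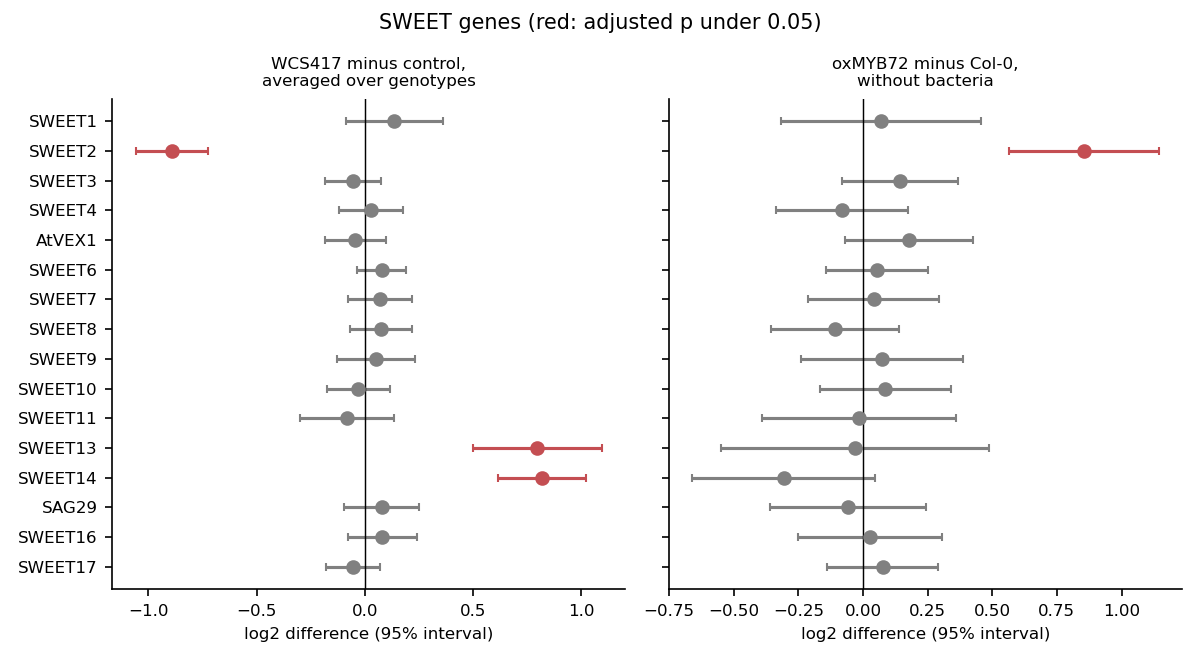
Averaged log2 effect of WCS417 and log2 difference of oxMYB72 minus Col-0 without bacteria for the measured SWEET genes (horizontal axes), with 95% intervals, and in red where the adjusted p is under 0.05. With WCS417 SWEET2 lies at -0.89 while SWEET13 and SWEET14 lie at 0.80 and 0.82, and in the comparison of genotypes SWEET2, at 0.85, is the only one in red.

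Further genes of sugar transport and use came from a list written by locus, to which 6 genes were added from the annotation. The 6 added were SFP1, SFP2, SBE2.2, AMY1, F2KP and USP. Beside SWEET2, 25 were measured, the 15 SWEET genes among them. With WCS417 3 of the 25 were called in Col-0 (2 higher, 1 lower), 5 in myb72-2 (3 higher, 2 lower), 3 in oxMYB72 (2 higher, 1 lower) and 7 on average (5 higher, 2 lower), against shares over all probe sets of 15.3%, 21.4%, 19.3% and 37.6%. Of the 7 called on average, 4 (2 higher, 2 lower) were among the 6 added genes. The median averaged effect of the 25 was 0.07, against 0.02 over all probe sets. The tonoplast monosaccharide carriers TMT1, TMT2 and TMT3, which load glucose and fructose into the vacuole, were at 0.08, 0.11 and 0.03 and were not called.

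SFP1, a sugar carrier of the ERD6-like family, fell with WCS417 in each genotype, as SWEET2 did. It went from 10.17 ± 0.07 to 9.56 ± 0.11 in Col-0, from 10.05 ± 0.21 to 9.51 ± 0.10 in myb72-2 and from 10.23 ± 0.05 to 9.60 ± 0.25 in oxMYB72 (log2, SD, n = 3). The averaged effect was -0.59 ± 0.07 (SE, limma, adjusted p = 8.83e-07). Unlike SWEET2, SFP1 was not called between oxMYB72 and Col-0, at 0.06 without and 0.04 with the bacterium.

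cwINV6, which is named as a cell wall invertase and acts as a fructan exohydrolase, rose with WCS417 by 0.34 ± 0.06 on average (SE, limma, adjusted p = 0.000164). The effect was 0.46 ± 0.11 in Col-0 (adjusted p = 0.00549), 0.45 ± 0.11 in myb72-2 (adjusted p = 0.00499) and 0.13 ± 0.11 in oxMYB72 (adjusted p = 0.495). It was the only one of the 25 called in any genotype comparison within a treatment, and was called in 2 of them, where 4.26% and 5.52% of all probe sets were called. With WCS417 it was lower in oxMYB72 than in myb72-2 by -0.56 ± 0.11 (adjusted p = 0.00215) and than in Col-0 by -0.46 ± 0.11 (adjusted p = 0.0138). Fitted on only the arrays compared, neither was called (adjusted p = 0.0541 and 0.0722), and the second was also lost without Col-0 WCS417 replicate 1 (0.0532) or oxMYB72 WCS417 replicate 3 (0.0894).

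USP, a UDP-sugar pyrophosphorylase, rose on average by 0.26 ± 0.06 (SE, limma, adjusted p = 0.00128). F2KP, the enzyme that makes and breaks down the glycolytic regulator fructose 2,6-bisphosphate, fell by 0.18 ± 0.07 (adjusted p = 0.0332), a call that quantile normalization again or the loss of any of 7 single arrays ended. AMY1, an alpha-amylase named here after its values were seen, rose by 0.16 ± 0.06 (adjusted p = 0.0426).

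The genes next to SWEET2 in chromosome order were examined for a shift shared with it, with the 5 nearest measured genes on each side. On average with WCS417 2 of these 10 were higher and 2 lower, against 37.6% of all probe sets in either direction. AT3G14780, the next locus by number and named here after its values were seen, was lower by -0.37 ± 0.06 on average (SE, limma, adjusted p = 2.76e-05), at -0.44 in Col-0, -0.34 in myb72-2 and -0.32 in oxMYB72. Its difference of oxMYB72 minus Col-0 without bacteria was -0.02 ± 0.10. Between oxMYB72 and Col-0 without bacteria 0 of 10 neighbours were called by limma and 0 had an unadjusted p under 0.05, near the 7.41% called of all probe sets, with differences between -0.17 and 0.08.

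The genes whose values were most like those of SWEET2 were found by Pearson's correlation over the 18 arrays, among probe sets with at least 50% of the SD of SWEET2. The correlation is a description over arrays that share groups, and carries no test. Of 2674 such probe sets, 55 had a correlation above 0.9, 24 of them named by a single gene. The 8 highest named genes were the loci AT5G65380 (0.954), AT3G11780 (0.946), AT1G20880 (0.938), AT5G61670 (0.933), AT1G69890 (0.926) and AT5G55970 (0.923), ALC (0.938), a transcription factor known from the opening of fruits, and JAL33 (0.922), a jacalin-related lectin.

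Over the 6 group means the correlation of these 8 with SWEET2 was 0.935 to 0.989, and over the deviations of arrays from their group means it was 0.291 (ALC) to 0.709 (AT5G55970). They were chosen for their likeness, so their direction is fixed by that choice. Their averaged WCS417 effects lay between -0.83 and -0.49 and their differences of oxMYB72 minus Col-0, averaged over treatments, between 0.33 and 0.66, against -0.89 and 0.79 for SWEET2. AT5G65380 came closest in size, at -0.83 and 0.66. ALC was at -0.61 and 0.52, and JAL33 at -0.78 and 0.39.

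**Figure D4:**
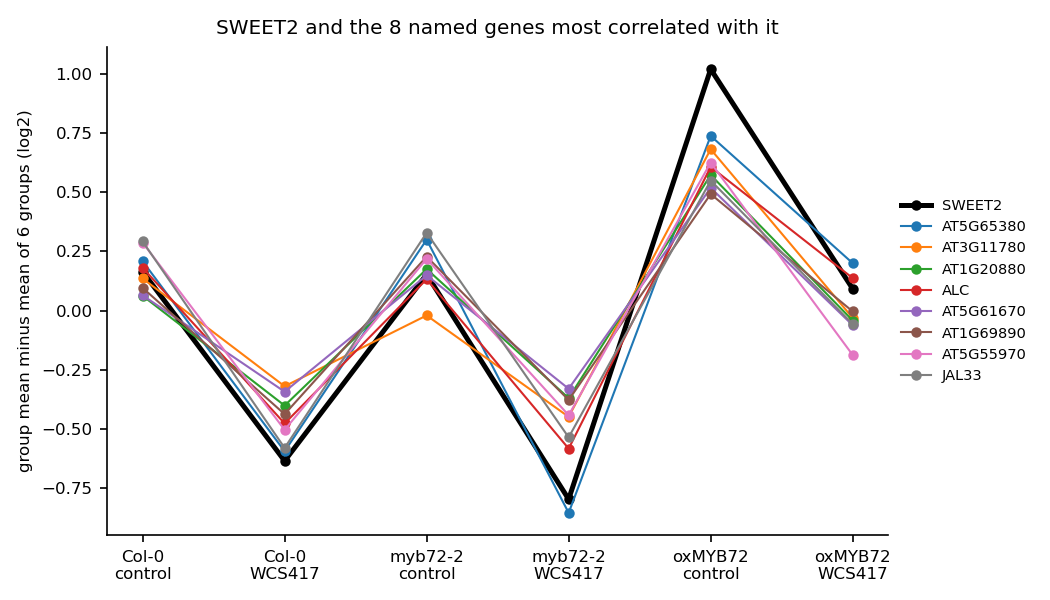
Group mean minus the mean of the 6 groups (log2, vertical axis) for SWEET2 and the 8 named genes most correlated with it, by group on the horizontal axis. All 9 lines are highest in untreated oxMYB72 and drop at each inoculated group, and the SWEET2 line spans the widest range.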

How the data were processed

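RNA of Arabidopsis roots was measured on 18 ATH1 arrays, 3 per group, with groups and replicate numbers from the sample titles. The authors made the deposited log2 values with RMA, per the submitters' processing notes; for its version, nothing is given in the sources used here. The log2 scale was taken from RMA and from the range of 2.42 to 14.6. Array medians lay between 6.29 and 6.42, and replicate arrays correlated between 0.991 and 0.998 across probe sets. RMA makes arrays alike in distribution, which hides a shift common to most genes, and it compresses large differences. Precision is limited by the number of arrays. Detection calls were not used here.

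The table holds 22810 probe sets, of which 64 are controls and the other 22746 were tested. Exactly 1 gene was named for 13513 (59.4%) by the platform annotation, with symbols updated through a RefSeq gene table of assembly TAIR10.1, used only for names and gene order. One limma model (version 3.58.1, R 4.3.3) of the 6 group means, fitted to all 18 arrays and moderated by eBayes, gave two-sided p-values, adjusted by Benjamini-Hochberg over all probe sets within a comparison. A call is an adjusted p under 0.05. Errors after ± are standard errors of this model unless given as SD. The model was tested on simulated data first.

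The gene and the lists were chosen with earlier results of these data known. Of 81 sugar genes written by locus, 20 were measured, SWEET2 among them, and 5 with a probe set but no symbol were left out. A gene with several probe sets was read by the brightest. Named were all measured SWEET genes, up to 3 called members of each other list, and the 8 named genes most correlated with SWEET2. Only 7 green tissue markers (5 of them added from the annotation) and 2 root markers had a probe set that named them alone. As alternatives, arrays were quantile normalized again or centred on their medians, the moderation was made robust with a variance trend, the 30% dimmest probe sets were removed, the fit was restricted to the arrays compared, the replicate number was added as a block, and every array was omitted once. Plots were made in Python 3.11.15 with matplotlib 3.10.9.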

Additional observations from a re-analysis of the deposited data

Results flagged for a closer look

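No SWEET2 value met a rule for a closer look, and with 3 arrays a group no array was tested as an outlier. Among the genes given beside SWEET2, 3 differences of the WCS417 effect between genotypes passed the test, all of them in markers of green tissue. PSAE-1, a subunit of photosystem I, fell with WCS417 by 1.08 in Col-0 and 1.05 in myb72-2 and by 0.37 in oxMYB72 (log2). The difference of these effects was 0.71 for oxMYB72 minus Col-0 (limma, adjusted p = 0.0491) and 0.67 for oxMYB72 minus myb72-2 (adjusted p = 0.0477). PSBY, a subunit of photosystem II, differed by 0.63 between oxMYB72 and myb72-2 (adjusted p = 0.0396), after effects of -0.63 and -1.26. With single arrays left out these ranged from 0.60 to 0.78, from 0.51 to 0.76 and from 0.51 to 0.74, and in most of those fits the adjusted p was above the threshold (up to 0.161, 0.146 and 0.115).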

How the results depend on the processing

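For SWEET2, each called difference kept its direction and its call under every alternative listed. With single arrays left out, the WCS417 effect ranged from -0.88 to -0.74 in Col-0, from -1.06 to -0.85 in myb72-2 and from -1.07 to -0.79 in oxMYB72. The oxMYB72 differences ranged from 0.72 to 1.00 against Col-0 and from 0.73 to 1.01 against myb72-2 without bacteria, and from 0.63 to 0.82 and from 0.79 to 1.00 with WCS417. Reversals occurred among SWEET2 differences that were not called. The effect in oxMYB72 minus that in myb72-2 was -0.0016 after quantile normalization again and -0.040 after median centring, and ranged from -0.12 to 0.16 with single arrays left out. With single arrays left out, myb72-2 minus Col-0 without bacteria ranged from -0.096 to 0.040, the effect in oxMYB72 minus that in Col-0 from -0.27 to 0.0089, inoculated oxMYB72 minus untreated Col-0 from -0.17 to 0.025 and minus untreated myb72-2 from -0.16 to 0.037; the cause was not tested.

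Between groups, deviations of arrays with the same replicate number correlated from -0.30 to 0.26 (median 0.007). Those of arrays with different numbers correlated from -0.41 to 0.39 (median 0.003), and 8 of 18 arrays were closest to one of their own number. These values can neither show nor exclude that the numbers pair arrays, and the labels state no pairing. With the replicate number as a block, the averaged effect on SWEET2 was -0.89 ± 0.07 (limma, adjusted p = 4.69e-09), where the SE without the block was 0.08. No SWEET2 call changed. The count of called sugar genes stayed within 3 to 4 in Col-0, 4 to 6 in myb72-2, 2 to 3 in oxMYB72 and 5 to 7 on average. For the other named genes, 98 of 140 called results kept their call under every alternative and 0 reversed. With 3 arrays a group, the 95% intervals of the SWEET2 differences between effects reached about 0.4 to either side, before any adjustment. A call at an adjusted p under 0.05 needed a larger difference, so differences above 0.4 could also have been missed.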
